A study of Rattus norvegicus with 60 samples.

Results

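The 33 genes described here encode chaperones, disulfide isomerases, stress sensors, degradation factors and translocon subunits of the endoplasmic reticulum (ER), the compartment in which secreted and membrane proteins are folded. They were chosen by gene symbol. All 33 were found, each on 1 row, among the 32883 genes of the count table. Of the 33, 32 had enough reads to be among the 12167 genes tested. The exception, Derl3, had 0 reads in all 60 libraries, where 3 counts would have corresponded to 0.121 to 0.377 CPM, the count scaled to a common library size.

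Liver RNA of male Sprague-Dawley rats, housed singly, was sequenced as stranded polyA libraries, 1 library per rat, with each animal counted as a biological replicate. Rats received water (vehicle) or perfluorooctanoic acid (PFOA), a fluorinated surfactant that activates the fatty acid receptor PPARα in rodent liver, at 1, 5 or 15 mg/kg per day by oral gavage in a volume of 10 ml/kg. Exposure lasted 7, 14 or 28 days, with a vehicle group on each day, which makes 12 groups of 5 rats. The study design gives an age of 5 to 6 weeks, while the records of the samples give 7 to 8 weeks for day 7, 8 to 9 for day 14 and 10 to 11 for day 28. The libraries held between 7965497 and 24770119 counts (median 12606152). Replicate numbers are not in the labels, so libraries 1 to 5 of a group are numbered by record order only.

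The liver secretes most plasma proteins, so its hepatocytes hold a large ER. Nascent chains enter through the translocon and are held by the chaperone BiP (Hspa5) and its co-chaperones, glycoproteins pass through the calnexin and calreticulin cycle, and disulfide isomerases form and rearrange disulfide bonds. When unfolded proteins accumulate, the sensors ATF6, IRE1 (Ern1) and PERK (Eif2ak3) start the unfolded protein response. Cleaved ATF6 and the spliced form of XBP1 then raise transcription of chaperone and degradation genes, while PERK lowers translation and induces ATF4. Proteins that fail to fold are recognised by lectins such as OS9 and EDEM1, moved out through a complex of SEL1L, the ubiquitin ligase HRD1 (Syvn1) and derlins, and extracted by the ATPase VCP for degradation.

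Many of these genes share a promoter element, shown here as background on their sequence. The genes were chosen for their roles in ER folding, stress sensing and degradation. An ER stress element in their promoters is therefore not independent of that choice, and its matches are not a result of these data. The ER stress response element (ERSE) was searched as the blocks CCAAT and CCACG with 9 bases of any kind between them, and its shorter variant ERSE-II as ATTGG and CCACG with 1 base between them. Both were searched on either strand in the RefSeq promoter windows of the rat build GRCr8, which run from 250 bases before to 50 bases after the annotated start. Windows were present for 26 of the 33 genes. ERSE was matched in 9 of them, namely Hspa5, Hsp90b1, Calr, Canx, Dnajc3, Creld2, Ero1b, Xbp1 and Derl3, and in 0.0657% of all 33469 windows. ERSE-II was matched in Dnajb11, Herpud1 and Hyou1, and in 0.0508% of all windows. The 14 matches follow, read 5′ to 3′ on the strand that holds the motif, with the fixed letters of the motif in capitals.
Hspa5: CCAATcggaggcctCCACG
Hsp90b1, distal: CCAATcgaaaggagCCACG
Hsp90b1, proximal: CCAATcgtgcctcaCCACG
Calr: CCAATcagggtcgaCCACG
Canx: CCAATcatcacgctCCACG
Dnajc3: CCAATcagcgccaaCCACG
Creld2: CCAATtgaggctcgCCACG
Ero1b: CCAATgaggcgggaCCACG
Xbp1: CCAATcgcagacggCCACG
Derl3: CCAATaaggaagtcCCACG
Dnajb11: ATTGGcCCACG
Herpud1: ATTGGgCCACG
Hyou1, distal: ATTGGcCCACG
Hyou1, proximal: ATTGGgCCACG

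The spacer between the fixed blocks differed from gene to gene, while its length is set by the motif. In Hspa5 the element lay at chr3:38452973-38452991, from -43 to -25 relative to the start, and in Calr at chr19:40213135-40213153, from -232 to -214 on the opposite strand. The element recognised by spliced XBP1, searched as TGACGTGG, was matched in Hyou1 and Vcp and in 0.595% of all windows, and the Hyou1 match overlaps the distal ERSE-II of that gene. An ATF4-type element, searched as TTGCATCA, was matched in Herpud1 and in 0.795% of all windows. These are matches of letters and not measured binding, and a window without a match says only that these letters are not in it. The 250 bases before the start follow for Hspa5, for Calr and Creld2, which were lower with PFOA in several comparisons, and for Xbp1, 5′ to 3′ on the strand of the gene and with the fixed letters of ERSE in capitals.
Hspa5 (chr3:38452766-38453015, plus strand): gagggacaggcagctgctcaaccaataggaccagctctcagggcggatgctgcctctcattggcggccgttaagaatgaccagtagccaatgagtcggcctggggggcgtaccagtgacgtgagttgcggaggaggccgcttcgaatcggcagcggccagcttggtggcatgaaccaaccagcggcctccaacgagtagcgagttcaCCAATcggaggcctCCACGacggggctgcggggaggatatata
Calr (chr19:40213117-40213366, plus strand): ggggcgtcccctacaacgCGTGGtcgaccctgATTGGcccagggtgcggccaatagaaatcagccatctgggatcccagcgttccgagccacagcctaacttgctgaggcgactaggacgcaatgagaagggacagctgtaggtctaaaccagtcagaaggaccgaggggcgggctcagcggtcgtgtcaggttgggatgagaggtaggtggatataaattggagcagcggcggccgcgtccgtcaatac
Creld2 (chr7:121789134-121789383, plus strand): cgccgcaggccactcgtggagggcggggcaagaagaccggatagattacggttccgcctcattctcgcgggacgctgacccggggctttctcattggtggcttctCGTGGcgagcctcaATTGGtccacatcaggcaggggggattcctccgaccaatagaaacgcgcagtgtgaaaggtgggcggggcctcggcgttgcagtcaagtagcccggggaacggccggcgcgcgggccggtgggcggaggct
Xbp1 (chr14:84604373-84604622, plus strand): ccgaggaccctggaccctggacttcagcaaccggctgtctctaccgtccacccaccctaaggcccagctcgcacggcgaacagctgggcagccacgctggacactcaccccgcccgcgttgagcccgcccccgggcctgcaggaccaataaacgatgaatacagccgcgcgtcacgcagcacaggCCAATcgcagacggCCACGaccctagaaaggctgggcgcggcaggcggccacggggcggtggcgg

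**Figure D1:**
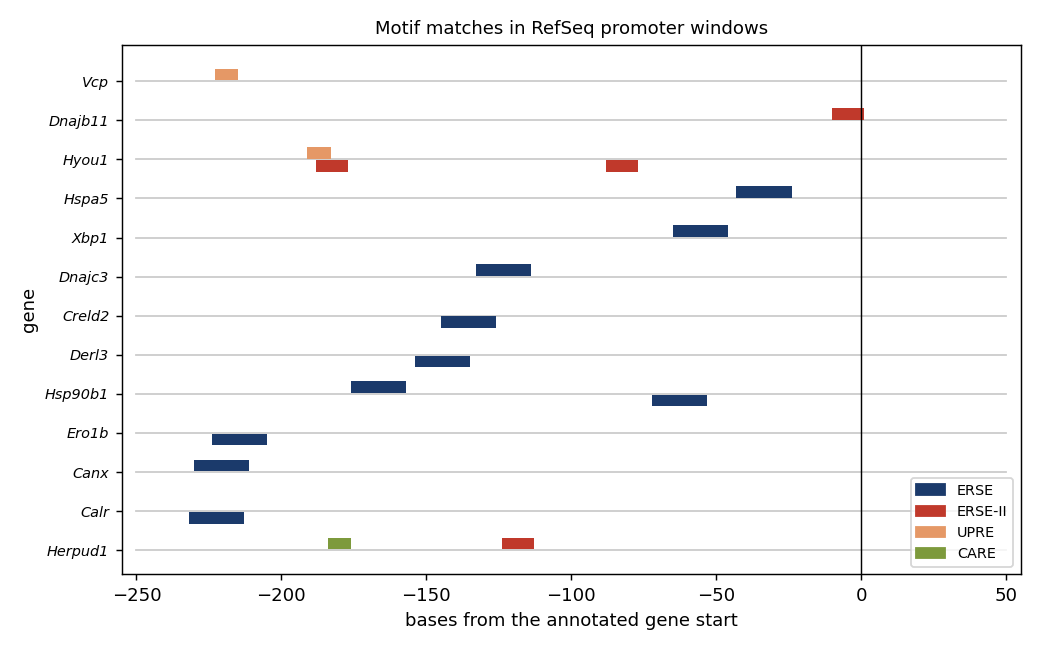
Positions of the 4 motifs in the promoter windows of the 13 genes with a match; the x axis is the distance in bases from the annotated start, bars above a line lie on the strand of the gene and bars below it on the opposite strand. The ERSE of Hspa5 lies closest to the start among the ERSE matches, and that of Calr farthest.

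Taken as a sum, the 33 genes held fewer reads in livers of PFOA-treated rats. Read numbers scale with transcript length as well as with level, so the sum is a share of the reads and not of molecules. It is weighted to the genes with most reads, with P4hb at 12.9% of it, Canx at 10.6%, Calr at 8.0%, Hsp90b1 at 7.9% and Hspa5 at 7.5%. On day 7 the summed level was 6672, 7333, 6794, 8138 and 9042 CPM in the 5 vehicle libraries, 7359.6, 8303, 7039, 5719 and 6238 CPM at 1 mg/kg, 4968, 5107, 4455, 6016 and 5261 CPM at 5 mg/kg and 5826, 5086, 5051, 4468 and 4748 CPM at 15 mg/kg. All 10 libraries of the 5 and 15 mg/kg groups lay below the lowest vehicle library, while the 1 mg/kg group overlapped the vehicle group. In log2 units the group means differed from vehicle by -0.13 at 1, -0.56 at 5 and -0.59 at 15 mg/kg. RNA of whole liver cannot tell fewer cells of a type from less RNA per cell.

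On day 14 every treated group lay below its vehicle group without overlap. The summed level was 6809, 7837, 7769, 7224 and 7009 CPM in the vehicle libraries, 6520.2, 5546, 5046, 5670.4 and 5546 CPM at 1 mg/kg, 4646, 4910.1, 5169, 4332 and 4438 CPM at 5 mg/kg and 5212, 4817, 4405, 5875 and 6219.8 CPM at 15 mg/kg. The log2 ratios of the means were -0.37, -0.64 and -0.47 in order of dose, so the ratio at 15 mg/kg was no larger than that at 5 mg/kg. On day 28 the means were 6343 ± 794 CPM (SD, n = 5) with vehicle, 5674 ± 268.7 CPM at 1 mg/kg, 5076 ± 231 CPM at 5 mg/kg and 5199 ± 657 CPM at 15 mg/kg, with log2 ratios of -0.16, -0.32 and -0.29. The day 28 groups overlapped at every dose, since vehicle library 1 was at 5194 CPM and the other 4 were between 6118 and 7375 CPM. With each gene given equal weight, the mean log2 level at 1 mg/kg differed from vehicle by -0.15, -0.37 and -0.18 on days 7, 14 and 28. The differences were -0.58, -0.60 and -0.32 at 5 mg/kg and -0.54, -0.51 and -0.36 at 15 mg/kg. By role, the summed sensors and Xbp1 were above vehicle on day 28 (log2 ratios 0.36, 0.04 and 0.18 in order of dose). So were the degradation genes at 1 mg/kg on days 14 and 28 (0.22 and 0.17) and at 15 mg/kg on day 14 (0.03). All of these overlapped vehicle, and every role was below vehicle in the other comparisons.

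**Figure D2:**
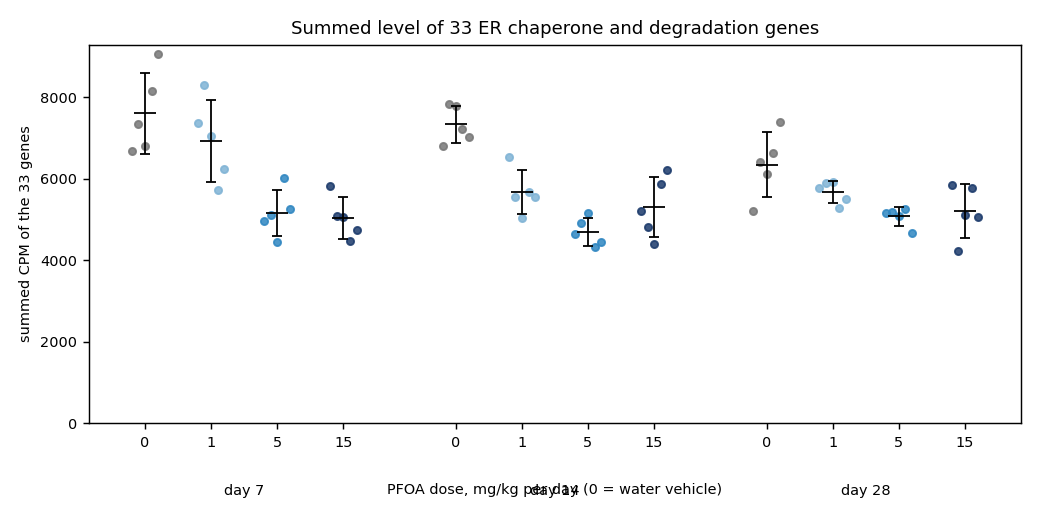
Summed CPM of the 33 genes in each of the 60 libraries (points) by PFOA dose and day, with the mean and SD of the 5 libraries of a group (bars). Day 7 libraries at 5 and 15 mg/kg and all treated libraries of day 14 lie below their vehicle group, and on day 28 the groups overlap.

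Gene by gene, all calls were in the lower direction. The quasi-likelihood test of edgeR set each dose beside same-day vehicle, and calls required an adjusted p, over all 12167 genes, under 0.05. The 3 doses of a day share their vehicle libraries, so their counts are not independent of one another. On day 7, 0 of 32 genes were called lower at 1 mg/kg, 10 at 5 mg/kg and 12 at 15 mg/kg, where 0.0247%, 2.85% and 7.2% of all genes tested were called lower. On day 14, 9, 12 and 14 genes were called lower in order of dose, beside 2.95%, 5.27% and 10.2% of all genes. On day 28 the counts were 1, 4 and 7, beside 1.38%, 4.85% and 8.31%. Single libraries moved some counts: the 9 at 1 mg/kg on day 14 became 4 without vehicle replicate 3 or 4 or treated replicate 1 or 2, and on day 28 the 1 at 1 mg/kg became 3 without vehicle replicate 3, the 4 at 5 mg/kg became 1 without treated replicate 3 and 8 without treated replicate 4, and the 7 at 15 mg/kg became 4 without vehicle replicate 2 or 5 or treated replicate 3 or 5.

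None of the 32 genes was called higher in any of the 9 comparisons by edgeR, and none by the Wald test of DESeq2, which called 0.237%, 3.76% and 6.75% of all genes higher on day 7, 5.91%, 6.18% and 11.8% on day 14 and 2.47%, 5.95% and 8.5% on day 28. Of all genes tested, the share called higher was 0.0904%, 3.27% and 6.78% on day 7, 3.76%, 5.47% and 12.7% on day 14 and 1.85%, 5.63% and 8.88% on day 28. At an unadjusted p under 0.05, 1 gene was higher at 15 mg/kg on day 14 and 1 at each dose on day 28, and none in the other 5 comparisons, beside 2.84%, 8.79% and 12% of all genes on day 7, 14.4%, 11.5% and 18.9% on day 14 and 8.83%, 11.9% and 14.6% on day 28. At 1 mg/kg on day 7, where no gene was called lower by either tool, 4 were lower at an unadjusted p under 0.05, beside 2.63% of all genes. The median log2 fold change of the 32 genes was -0.14, -0.56 and -0.62 on day 7, -0.38, -0.63 and -0.48 on day 14 and -0.14, -0.35 and -0.30 on day 28. Over all genes tested the median lay between -0.03 and 0.04 in these comparisons.

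Altogether 69 of the 288 tests of the 32 genes against vehicle were called, and 22 of the genes were called in at least 1 comparison. The same totals were not computed over all genes, so they have no share of all genes beside them. P4hb was called in 8 of the 9 comparisons, Pdia4 and Pdia6 in 6 and Dnajb11 in 5. Not all of these calls held. Of 16 alternatives in processing or libraries, the Dnajb11 call at 1 mg/kg on day 14 was lost in 11. The Pdia6 call at 5 mg/kg on day 28 was lost in 8, and that of Pdia4 at 1 mg/kg on day 14 in 4 and at 15 mg/kg on day 28 in 9. The 10 tested genes that were never called are Sil1, Atf6, Ern1, Sel1l, Syvn1, Edem1, Derl1, Os9, Vcp and Sec61b. Of these, 6 belong to ER-associated degradation (8 tested) and 2 to the sensors and Xbp1 (4 tested). The within-group SD of their log2 level ran from 0.35 (Derl1) to 0.74 (Sel1l), beside 0.16 to 0.20 for P4hb, Pdia4, Pdia6 and Dnajb11. Some called genes spread more, such as Sdf2l1 at 1.05. A missing call therefore does not show that a gene was unchanged. Of the 69 calls, 36 held under every alternative processing and with every library of the 2 compared groups left out in turn. Groups that did not overlap, with all 5 treated libraries below all 5 vehicle libraries, were found for 6 genes each at 5 and 15 mg/kg on day 7 (all genes 2.04% and 4.59%), for 4, 9 and 8 genes on day 14 (all genes 3.16%, 4.13% and 5.84%) and for 2, 3 and 2 genes on day 28 (all genes 2.06%, 3.28% and 4.82%). At 1 mg/kg on day 7 the count was 0 (all genes 0.542%). In the other direction, with all treated above all vehicle libraries, the count was 0 in all 9 comparisons, where all genes gave 0.485%, 2.38% and 5.2% on day 7, 4.52%, 3.85% and 6.78% on day 14 and 3.08%, 4.4% and 5.84% on day 28.

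**Figure D3:**
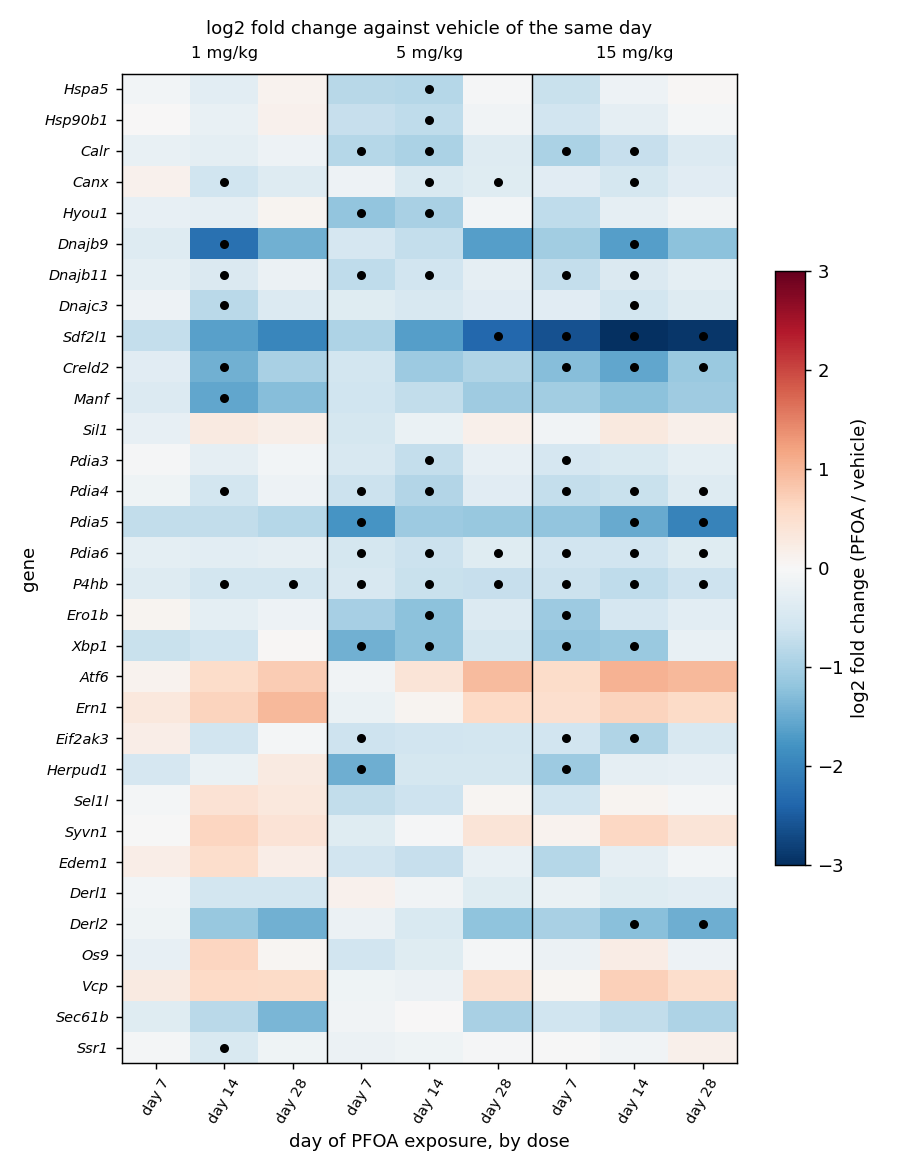
Log2 fold change against vehicle of the same day (colour) for the 32 tested genes in the 9 comparisons, ordered by role from chaperones at the top to the translocon at the bottom; a black dot marks an adjusted p under 0.05. All dots lie on blue cells, and the rows of Atf6, Ern1, Syvn1 and Vcp hold many of the red cells.

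The 12 chaperones and co-chaperones were called lower in 3 cases at 5 and 4 at 15 mg/kg on day 7, in 6, 6 and 7 at 1, 5 and 15 mg/kg on day 14, and in 0, 2 and 2 on day 28. The shares of all genes called lower were 2.85% and 7.2%, then 2.95%, 5.27% and 10.2%, then 1.38%, 4.85% and 8.31%. Calr encodes calreticulin, the soluble lectin chaperone whose promoter window is printed above. Its level was 596, 644, 571, 704 and 851 CPM in the vehicle libraries of day 7 and 404, 397, 388, 268.6 and 298 CPM at 15 mg/kg. Every treated library was below every vehicle library. The log2 fold change was -0.94 ± 0.17 (SE; adjusted p = 8.05e-05, edgeR). Calr was also called at 5 mg/kg on day 7 (-0.85 ± 0.17) and at 5 and 15 mg/kg on day 14 (-0.94 ± 0.17 and -0.70 ± 0.17), without overlap in any of these. On day 28 the values were -0.39 ± 0.17 and -0.41 ± 0.17 at 5 and 15 mg/kg, and neither passed the test.

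Canx, calnexin, the membrane-bound partner of calreticulin in glycoprotein folding, was called at all 3 doses on day 14. At that time its level was 758, 794, 908, 788 and 746 CPM with vehicle and 639, 572, 527, 509.8 and 646 CPM at 5 mg/kg. The groups did not overlap, and the log2 fold change was -0.47 ± 0.13 (adjusted p = 0.00929, edgeR). In a fit of the day 14 libraries alone the adjusted p of Canx was 0.0505. Day 14 values at 1 and 15 mg/kg were -0.60 ± 0.13 and -0.53 ± 0.13, both called, and on day 28 only the 5 mg/kg group was called (-0.37 ± 0.13, adjusted p = 0.0464). The day 28 call was lost in 9 of 16 alternatives, 7 of them with a single library left out, with adjusted p up to 0.197 (edgeR).

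Hspa5 (BiP) and Hsp90b1, the ER members of the Hsp70 and Hsp90 families, passed the test in a single comparison, 5 mg/kg on day 14. The Hspa5 libraries held 529, 634, 549, 361 and 507 CPM with vehicle and 261.4, 329, 464, 217 and 165 CPM at 5 mg/kg, with 1 treated library inside the vehicle range. The fold change of Hspa5 was -0.84 ± 0.28 (adjusted p = 0.0402, edgeR) and that of Hsp90b1 -0.77 ± 0.23 (adjusted p = 0.017). Both calls depended on single libraries, with adjusted p up to 0.144 and 0.0764 under the alternatives, among them the fits without vehicle replicate 2 or treated replicate 4 or 5. On day 28 Hspa5 was at 437 ± 101 CPM (SD, n = 5) with vehicle and 446 ± 153 CPM at 15 mg/kg, a log2 difference of 0.03 ± 0.28 (SE) with a 95% interval from -0.53 to 0.59.

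The nucleotide exchange factors of BiP were measured by Hyou1 and Sil1. Hyou1, a large exchange factor with ERSE-II matches in its window, was at 58.6, 126, 74.2, 92.0 and 150.4 CPM with vehicle and 30.5, 56.3, 39.6, 66.0 and 30.03 CPM at 5 mg/kg on day 7. Treated library 4 was inside the vehicle range and the other 4 were below it. The fold change was -1.17 ± 0.30 (adjusted p = 0.00962, edgeR), a call lost without vehicle replicate 5 and in the fit of day 7 alone, with adjusted p up to 0.0585. Hyou1 was also called at 5 mg/kg on day 14 (-0.98 ± 0.30, adjusted p = 0.0251), where adjusted p reached 0.103 under the alternatives. Sil1, the other exchange factor, was not called, with fold changes from -0.52 to 0.29 over the 9 comparisons.

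Dnajb11, a J-domain co-chaperone that hands unfolded clients to BiP, was called in 5 comparisons. On day 7 its level was 59.6, 59.6, 66.4, 86.2 and 75.1 CPM with vehicle and 53.0, 36.6, 44.8, 30.1 and 46.7 CPM at 15 mg/kg. No library of one group entered the range of the other, and the fold change was -0.72 ± 0.14 (adjusted p = 1.44e-04, edgeR). At 5 mg/kg it was -0.77 ± 0.14 on day 7 and -0.57 ± 0.14 on day 14, both called. Dnajb9, an inducible J-domain protein that represses IRE1, and Dnajc3, which acts with BiP, were called at 1 and 15 mg/kg on day 14. Dnajb9 was at 75.7 to 767 CPM with vehicle and 38.5 to 124 CPM at 1 mg/kg (-2.25 ± 0.60), and the highest vehicle value came from library 4. Without that library neither call of Dnajb9 held, and the fold change at 15 mg/kg was -0.99, while without the 3 libraries of lowest score, treated replicate 3 among them, it was -2.62. With the library score described below as covariate, the fold change at 1 mg/kg was -1.06 ± 0.22, where the score of the groups differed by 1.08, and at 15 mg/kg -1.21 ± 0.21 beside -1.64 ± 0.59. Dnajc3 was at 253.6 to 299.9 CPM with vehicle and 129 to 197 CPM at 1 mg/kg (-0.80 ± 0.18), without overlap, and this call held in every alternative. The call of Dnajc3 at 15 mg/kg (-0.55 ± 0.18) was lost without the filter, without vehicle replicate 3 and without treated replicate 1.

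Sdf2l1, a partner of Dnajb11 in the BiP cycle, had the largest fold changes of the 32 genes at 15 mg/kg. On day 14 it was at 40.5, 22.3, 61.4, 106 and 81.2 CPM with vehicle and 4.54, 6.15, 21.3, 3.99 and 2.76 CPM at 15 mg/kg, from 2784 and 479 reads in all. Treated library 3 stood above the other 4, and still below every vehicle library. The fold change was -3.02 ± 0.70 (adjusted p = 0.00105, edgeR), with -2.61 ± 0.69 on day 7 and -2.91 ± 0.70 on day 28, both called with overlapping groups. Vehicle libraries spread widely, from 13.2 to 108 CPM on day 7 and from 12.9 to 68.3 CPM on day 28. At 5 mg/kg only day 28 was called (-2.36 ± 0.68), and not without treated replicate 3, where the adjusted p was 0.0608.

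Creld2, an ER stress-inducible protein with an ERSE in its window, was called at 15 mg/kg on all 3 days and at 1 mg/kg on day 14. Its day 14 libraries held 34.5, 24.6, 53.6, 84.9 and 60.5 CPM with vehicle and 12.5, 15.9, 28.8, 15.6 and 14.6 CPM at 15 mg/kg, and library 3 was again the highest treated one and the only one inside the vehicle range. The fold change was -1.56 ± 0.40 (adjusted p = 0.00308, edgeR), beside -1.27 ± 0.40 on day 7 and -1.11 ± 0.40 on day 28, both also called. Those 2 calls were lost with several single libraries left out, with adjusted p up to 0.162 and 0.248, and with the score as covariate the day 28 value was -0.71 ± 0.19. At 1 mg/kg on day 14 Creld2 was -1.45 ± 0.40, lost without any 1 of 5 libraries, and -0.79 ± 0.19 with the score as covariate. Manf, a secreted ER stress-inducible factor, was called at 1 mg/kg on day 14 only (-1.55 ± 0.48, adjusted p = 0.0399). That call was lost in 9 of 16 alternatives, among them the fits without 7 single libraries (adjusted p up to 0.157), and with the score as covariate the fold change was -0.79 ± 0.14. Its values at 15 mg/kg were -1.03 ± 0.47, -1.23 ± 0.47 and -1.06 ± 0.47 on days 7, 14 and 28.

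The 6 genes of disulfide formation, 5 isomerases and the oxidase Ero1b, included the genes called most often. Their summed level was 2054 ± 178, 2042 ± 208 and 1837 ± 141 CPM (SD, n = 5) in the vehicle groups of days 7, 14 and 28 and 1329 ± 144, 1292 ± 129.5 and 1284 ± 112 CPM at 15 mg/kg. The 15 mg/kg libraries lay below all vehicle libraries on each of the 3 days, as did those at 5 mg/kg, and at 1 mg/kg on days 14 and 28. The numbers called lower were 4 and 5 at 5 and 15 mg/kg on day 7, 2, 5 and 4 on day 14 in order of dose, and 1, 2 and 4 on day 28. Over all genes the shares were 2.85% and 7.2%, then 2.95%, 5.27% and 10.2%, then 1.38%, 4.85% and 8.31%.

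P4hb encodes protein disulfide isomerase, which is also a subunit of prolyl 4-hydroxylase and of the microsomal triglyceride transfer protein. On day 14 it was at 880.1, 1127, 1132, 976 and 1003 CPM with vehicle and 591, 559, 625, 616 and 629.5 CPM at 15 mg/kg. The 15 mg/kg libraries clustered tightly and did not overlap the vehicle libraries. The fold change was -0.76 ± 0.13 (adjusted p = 9.34e-06, edgeR). At 15 mg/kg it was -0.64 ± 0.13 on day 7 and -0.62 ± 0.13 on day 28, both without overlap. Its call at 5 mg/kg on day 7 (-0.47 ± 0.13) was lost without treated replicate 2 or 3, and that at 1 mg/kg on day 14 (-0.56 ± 0.13) in the fit of day 14 alone.

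P4hb was the only one of the 32 genes called at 1 mg/kg on day 28. There its libraries held 881, 962, 983, 979.9 and 1042 CPM with vehicle and 584, 666, 608, 748 and 713 CPM at 1 mg/kg, with no overlap (-0.55 ± 0.13, adjusted p = 0.00649, edgeR). The DESeq2 Wald test called 6 of the 32 genes lower in that comparison, beside 2.45% of all genes it adjusted over. In the remaining comparison, 1 mg/kg on day 7, P4hb was at 1008 ± 73.3 CPM with vehicle and 776 ± 97.8 CPM with PFOA (-0.38 ± 0.13, adjusted p = 0.452), with 4 of the 5 treated libraries below the lowest vehicle library.

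Pdia4 and Pdia6, isomerases that associate with BiP, were called at 5 and 15 mg/kg on days 7 and 14. On day 7 Pdia4 was at 229, 235, 231, 326 and 334 CPM with vehicle and 182, 161, 169.7, 145 and 163 CPM at 15 mg/kg (-0.72 ± 0.14, adjusted p = 1.24e-04, edgeR). Pdia6 was at 214, 210.1, 189.6, 221 and 238 CPM with vehicle and 153, 146, 166, 136 and 120.4 CPM at 15 mg/kg (-0.57 ± 0.12, adjusted p = 4.06e-04). Neither pair of groups overlapped. On day 28 the fold changes at 15 mg/kg were -0.39 ± 0.14 and -0.37 ± 0.12, beside -0.66 ± 0.14 and -0.57 ± 0.12 on day 14, and both day 28 calls were lost with some single libraries left out (adjusted p up to 0.127 and 0.108).

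Pdia5, another isomerase of the ER, was called at 15 mg/kg on days 14 and 28 and at 5 mg/kg on day 7. On day 28 its libraries held 88.9, 52.1, 48.5, 37.5 and 82.5 CPM with vehicle and 17.6, 18.8, 8.74, 9.59 and 22.1 CPM at 15 mg/kg, without overlap. The fold change was -2.01 ± 0.49 (adjusted p = 0.00198, edgeR), and it was -1.77 ± 0.48 at 5 mg/kg on day 7, a call lost without treated replicate 2. Vehicle library 2 of day 14 was at 5.28 CPM while the other 4 were at 35.6 to 91.2 CPM, and the call at 15 mg/kg that day (-1.51 ± 0.48) was lost without vehicle replicate 3 or 4 or treated replicate 2 and in the fit of day 14 alone. Pdia3, which binds calnexin and calreticulin, was called at 15 mg/kg on day 7 (-0.50 ± 0.18) and at 5 mg/kg on day 14 (-0.73 ± 0.18), and the first of these, with an adjusted p of 0.049, did not hold without any 1 of 5 libraries. Ero1b, an oxidase that recharges the isomerases, was called in the same comparisons, with -1.10 ± 0.33 and -1.22 ± 0.33. The first was lost without vehicle replicate 5 or treated replicate 5 and in the fit of day 7 alone (adjusted p up to 0.164, with -0.70 without that vehicle library), and the second without vehicle replicate 2 (0.0595).

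**Figure D4:**
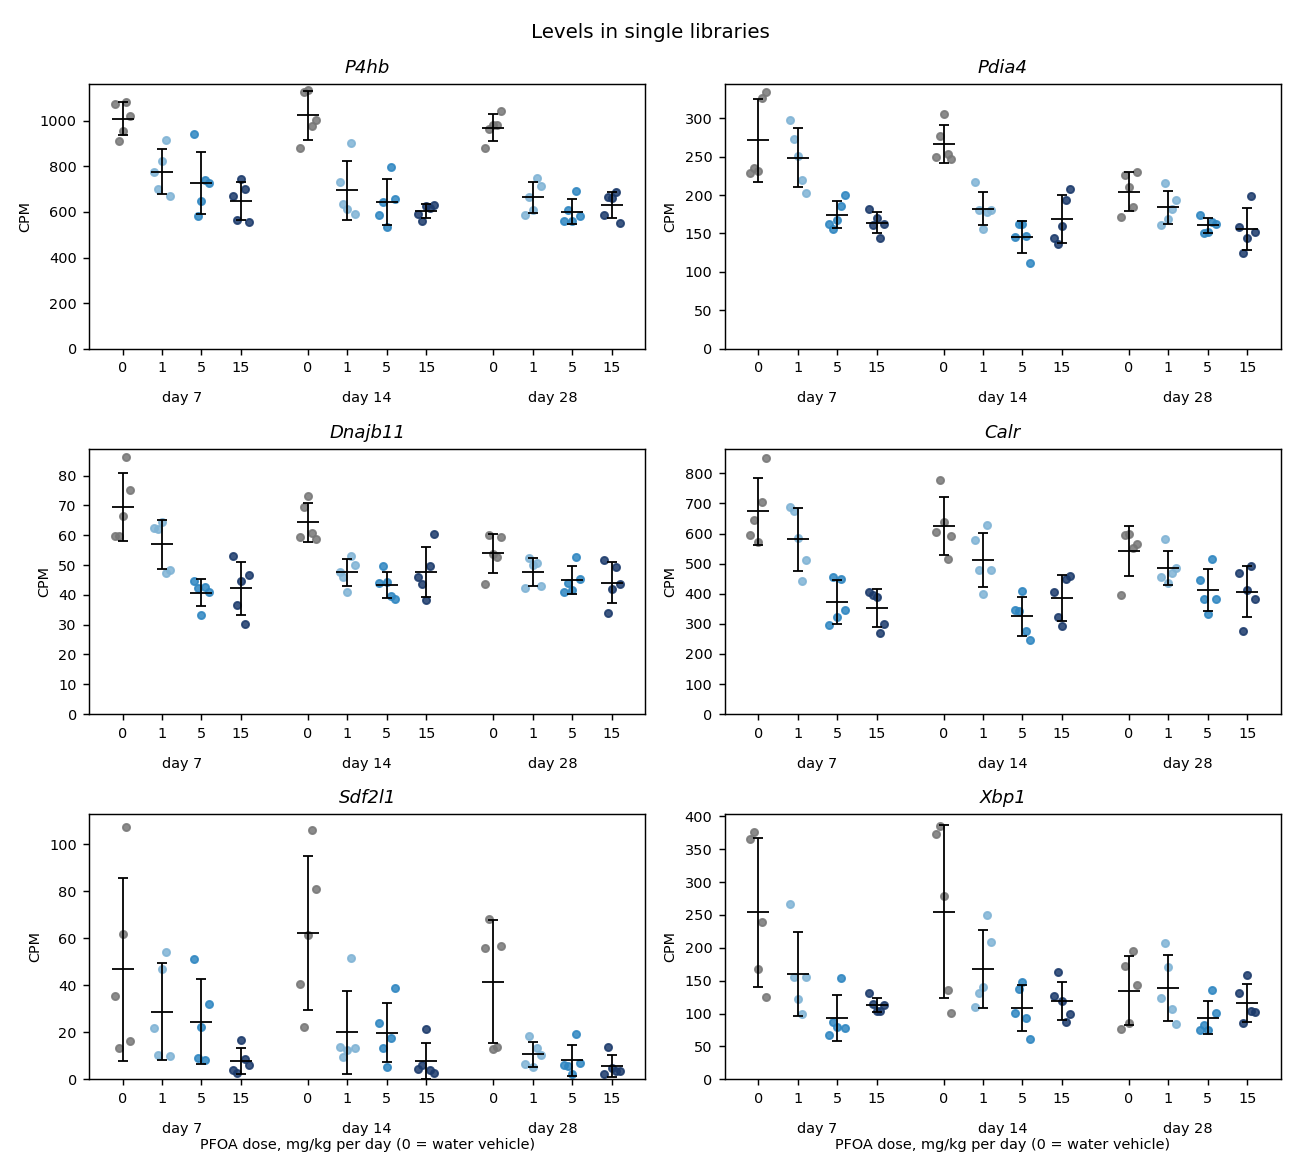
CPM of P4hb, Pdia4, Dnajb11, Calr, Sdf2l1 and Xbp1 in each library (points) by dose and day, with the mean and SD of the 5 libraries of a group (bars). P4hb separates treated from vehicle libraries on all 3 days at 15 mg/kg, while the vehicle libraries of Sdf2l1 and Xbp1 spread over a wide range.

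Of the 3 sensors and Xbp1, only Xbp1 and Eif2ak3 were called. Xbp1, the transcription factor spliced by IRE1, was at 365, 375, 168, 239 and 125 CPM with vehicle on day 7 and at 131, 115, 104, 104 and 112 CPM at 15 mg/kg. Vehicle library 5 fell within the treated range, and the other 4 were above it. The fold change was -1.17 ± 0.33 (adjusted p = 0.00956, edgeR), with -1.44 ± 0.33 at 5 mg/kg, and -1.24 ± 0.33 and -1.10 ± 0.33 at 5 and 15 mg/kg on day 14, all 4 called in every alternative. These counts are of the whole gene and do not separate the spliced from the unspliced form. On day 28 the vehicle group of Xbp1 was at 135 ± 52.4 CPM, beside 254.3 ± 113 CPM on day 7, and the fold changes of that day did not pass the test (-0.52 ± 0.32 and -0.21 ± 0.32).

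Eif2ak3, the kinase PERK, was counted with 59 to 182 reads per library in these groups, and on day 14 was at 11.0, 11.4, 10.7, 17.9 and 15.7 CPM with vehicle and 6.53, 7.15, 5.64, 8.61 and 7.81 CPM at 15 mg/kg. The groups did not overlap, and the fold change was -0.90 ± 0.20 (adjusted p = 5.81e-04, edgeR). Its calls on day 7 at 5 and 15 mg/kg had adjusted p of 0.0438 and 0.0429, and were lost in most of the fits that left out a library. Atf6 and Ern1 had positive fold changes at 15 mg/kg on all 3 days that did not pass the test. For Atf6 they were 0.55 ± 0.43, 1.04 ± 0.43 and 0.96 ± 0.43, and for Ern1 0.51 ± 0.44, 0.67 ± 0.44 and 0.58 ± 0.44. Atf6 on day 28 was at 16.7, 28.4, 53.4, 56.5 and 25.4 CPM with vehicle and 87.1, 36.4, 75.0, 77.2 and 75.7 CPM at 15 mg/kg, so that 4 treated libraries were above all vehicle libraries and library 2 was inside their range.

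Among the 9 genes of ER-associated degradation, calls were limited to Herpud1 and Derl2. Herpud1, a membrane protein that scaffolds the HRD1 complex, was at 132, 289, 305, 443 and 391.7 CPM with vehicle on day 7, 106, 103, 113, 119 and 124 CPM at 5 mg/kg and 194, 136, 133, 113 and 157 CPM at 15 mg/kg. The 5 mg/kg libraries were all below the vehicle libraries, and at 15 mg/kg 4 libraries were above vehicle library 1 and all 5 were below the other 4 vehicle libraries. The fold changes were -1.46 ± 0.31 (adjusted p = 0.00136, edgeR) and -1.09 ± 0.31 (adjusted p = 0.0108). At 15 mg/kg on days 14 and 28 they were -0.26 ± 0.31 and -0.25 ± 0.31, and neither passed the test. Derl2, a derlin of the retrotranslocation complex, was at 171, 95.3, 52.6, 60.6 and 170.2 CPM with vehicle on day 28 and 28.3, 85.9, 26.7, 32.0 and 27.6 CPM at 15 mg/kg (-1.46 ± 0.47, adjusted p = 0.0228). Treated library 2 was inside the vehicle range, and the call was lost without any 1 of vehicle libraries 1 and 5 and treated libraries 1, 3, 4 and 5, with adjusted p up to 0.0816. At 15 mg/kg on day 14 Derl2 was -1.25 ± 0.47 (adjusted p = 0.0448), a call lost without any 1 of 7 libraries. Derl1 was not called, with fold changes of -0.20 ± 0.23, -0.36 ± 0.23 and -0.32 ± 0.23 at 15 mg/kg.

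The membrane adaptor Sel1l, the ligase Syvn1, the lectins Os9 and Edem1 and the ATPase Vcp passed the test in no comparison, and their signs were mixed. At 15 mg/kg on day 14 Syvn1 had a fold change of 0.62 ± 0.41, Vcp 0.71 ± 0.37 and Os9 0.23 ± 0.38, while Edem1 had -0.27 ± 0.32. The 95% interval of Vcp there ran from -0.04 to 1.46 and that of Sel1l from -0.81 to 0.97, so changes of either sign remained within the error. The summed level of the degradation genes was 1195 ± 148 CPM with vehicle and 1221 ± 264.1 CPM at 15 mg/kg on day 14, and 1292 ± 329 and 1273 ± 259.03 CPM on day 28. On day 7 it was 1503 ± 423 CPM with vehicle, 1066 ± 305.7 CPM at 5 mg/kg and 1082 ± 218 CPM at 15 mg/kg, log2 ratios of -0.50 and -0.47, and on day 14 at 5 mg/kg 912 ± 159 CPM (-0.39), all with overlapping groups. Of the 2 translocon genes, Ssr1, a subunit of the translocon-associated complex, was called at 1 mg/kg on day 14 (-0.47 ± 0.14, adjusted p = 0.0413, edgeR), a call lost with most single libraries left out. Sec61b, a subunit of the channel itself, was not called, with values of -0.59 ± 0.46, -0.75 ± 0.46 and -0.91 ± 0.46 at 15 mg/kg.

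Set beside the promoter matches printed above, 11 tested genes hold ERSE or ERSE-II in their window and 14 have a window with neither. At 15 mg/kg on day 7, 6 of the 11 and 4 of the 14 were called lower, with median log2 fold changes of -0.77 and -0.62. On day 14 the counts at 15 mg/kg were 6 and 7 (medians -0.51 and -0.70), and on day 28 1 and 5 (medians -0.29 and -0.44). At 5 mg/kg on day 14 they were 8 and 2 (medians -0.84 and -0.60). The order of the 2 sets therefore changed with dose and day, and no test of their difference was made. Of all genes, 7.2%, 10.2% and 8.31% were called lower at 15 mg/kg on days 7, 14 and 28. At 5 mg/kg on day 14 that share was 5.27%.

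Dose and time were compared directly as well. Between 15 and 5 mg/kg, 0 of the 32 genes were called on days 7, 14 and 28 by edgeR and 0 by the DESeq2 Wald test, while 0.164% of all genes were called higher and 0.164% lower on day 7, 0% in either direction on day 14, and 0.0329% higher and 0.00822% lower on day 28. The Wald test called 0.793%, 0.319% and 0.0378% of all genes. At an unadjusted p under 0.05 the counts were 1, 7 and 0, beside 11.4%, 12% and 2.56% of all genes. The change of a dose's effect from day 7 to day 14 or day 28, tested as an interaction for each of the 3 doses, gave 0 called genes in all 6 tests by edgeR. At an unadjusted p under 0.05 the counts for days 14 and 28 were 5 and 2 at 1 mg/kg (all genes 14.1% and 4.79%), 1 and 6 at 5 mg/kg (3.88% and 8.98%) and 0 and 3 at 15 mg/kg (2.38% and 2.74%). The Wald test called 1 of the 32 in the 1 mg/kg test of day 14 and 0 in the other 5 (all genes 0.932% and 0.134%, 0% and 0.0492% and 0.00476% and 0.00953%). Over all genes, 0.0986% were called higher and 0.0493% lower in the 1 mg/kg test of day 14, 0.0575% higher in that of day 28, 0.00822% higher in the 5 mg/kg test of day 28, and 0% otherwise. Vehicle groups of day 28 and day 7 gave 0 calls among the 32 genes by either tool (all genes 0.0164% higher and 0.0247% lower by edgeR, 0.107% by the Wald test), although 6 were lower at day 28 at an unadjusted p under 0.05, beside 4.73% of all genes in either direction, and the median log2 fold change was -0.25. The smaller counts on day 28 are thus counts past a threshold, and a difference from day 7 was not shown.

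Libraries of a group differed along a strong shared axis, and the 32 genes fell on both sides of it. The axis was computed with these genes left out and held 58.9% of the within-group variance. The library score is the signed, scaled mean level of the 500 genes most correlated with this axis. It is oriented so that all 70 ribosomal protein genes correlate negatively with it within groups (median r = -0.98). The score was centred over all 60 libraries and not within groups. PFOA effects on the 500 genes would therefore enter it and the fits that use it as covariate. Within groups, over the 60 libraries, Derl2 (-0.97), Derl1 (-0.97), Sec61b (-0.97), Manf (-0.96), Dnajb9 (-0.94), Sdf2l1 (-0.94) and Creld2 (-0.88) had a Pearson correlation with the score below -0.8. Vcp (0.98), Os9 (0.97), Syvn1 (0.97), Sel1l (0.97), Atf6 (0.94), Ern1 (0.93), Hyou1 (0.89), Sil1 (0.86) and Hspa5 (0.84) had one above 0.8. The other 16, among them P4hb (-0.45), Pdia4 (0.22), Pdia6 (0.39) and Dnajb11 (0.17), lay between. These correlations describe libraries that differed in depth, and preparation as well as biology may enter them. What the score stands for, and its relation to depth, was not tested. Of the 9 genes above 0.8, 4 belong to degradation, 2 are sensors and 3 are chaperones. The share of all genes past either cut was not computed, so these counts are not a result about the 32 genes.

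The score differed between groups, so its values stand beside the results. The mean score of the treated group minus that of vehicle was 0.12, -0.57 and -0.06 on day 7, 1.08, -0.32 and 0.65 on day 14, and 1.01, 0.65 and 0.60 on day 28, for 1, 5 and 15 mg/kg. With the score as a covariate in the same fit, edgeR called 23 and 25 genes lower at 5 and 15 mg/kg on day 7 (all genes 8.8% and 17.3%), 19, 22 and 22 on day 14 (6.02%, 15.7% and 20.3%) and 6, 14 and 18 on day 28 (3.49%, 12.1% and 17.3%). At 1 mg/kg on day 7 it called 2 (0.625%). All 69 calls of the fit without the score were among them. Atf6 was then called higher at 15 mg/kg on days 7, 14 and 28 (0.80 ± 0.15, 0.56 ± 0.15 and 0.64 ± 0.15, adjusted p = 1.83e-05, 0.00167 and 4.47e-04) and at 5 mg/kg on days 14 and 28. Ern1 (0.83 ± 0.17) and Syvn1 (0.30 ± 0.11) were called higher at 15 mg/kg on day 7 and Vcp (0.24 ± 0.09) on day 14, beside 21.8% of all genes called higher in each of these 2 comparisons. The corresponding shares were 15.7% and 13.4% at 5 mg/kg on days 14 and 28 and 18.4% at 15 mg/kg on day 28.

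**Figure D5:**
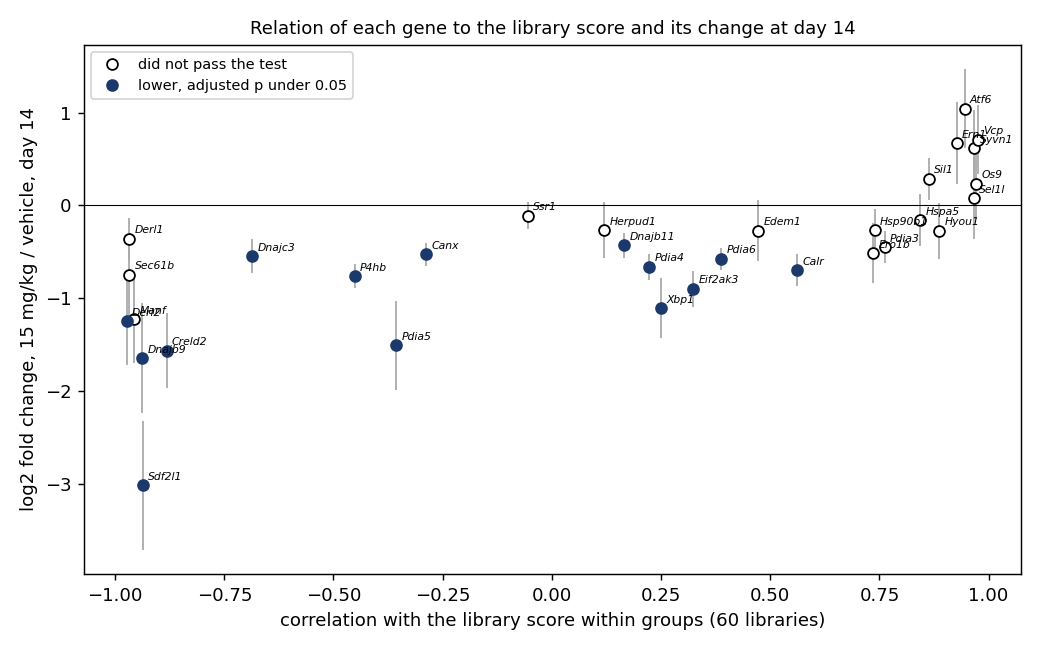
Within-group correlation of each of the 32 genes with the library score (x axis) against its log2 fold change at 15 mg/kg on day 14 (y axis; bars, SE; filled points, adjusted p under 0.05). The group means of the score differed by 0.65 in this comparison; genes near a correlation of 0 lie below 0 and most of them were called, while the genes at the right end did not pass the test.

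Pairs of genes were also compared within groups with the score removed. The correlation over the 60 libraries was 0.87 for Manf and Hyou1, 0.83 for Hspa5 and Hsp90b1, 0.82 for Pdia3 and Hsp90b1, 0.79 for Calr and Pdia6 and 0.78 for Creld2 and Hyou1. Before the score was removed, Manf and Hyou1 had a correlation of -0.73. With the score removed, the median correlation with the others was highest for Hspa5, at 0.47. Xbp1, Atf6, Pdia5 and Os9 had the lowest medians, at 0.12, 0.10, 0.07 and 0.04. These values describe rats of the same groups, and genes that share libraries are not independent of each other.

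Other genes of the same pathways, taken from lists, are counted here beside the shares of all genes at 15 mg/kg, 6.78% higher and 7.2% lower on day 7, 12.7% and 10.2% on day 14 and 8.88% and 8.31% on day 28. A list's count near such a share is not a result about the list. Of 25 tested further folding enzymes and chaperones, the counts at 15 mg/kg on days 7, 14 and 28 were 1 higher and 1 lower, 1 higher and 2 lower and 1 higher and 1 lower. Creld1, a relative of Creld2, rose (0.78 ± 0.21, 1.05 ± 0.21 and 0.82 ± 0.21, adjusted p = 0.00675, 1.85e-04 and 0.0033, edgeR), and the prolyl isomerase Fkbp2 was called lower on days 14 and 28 (-0.94 ± 0.30 and -0.92 ± 0.30). Of 24 further degradation factors the counts were 0 higher and 1 lower, 3 higher and 5 lower and 2 higher and 5 lower. Ube2g2, a ubiquitin-conjugating enzyme of the pathway, fell on all 3 days (-0.61 ± 0.17, -0.58 ± 0.17 and -0.50 ± 0.17), as did on days 14 and 28 the mannosidase-like Edem2 (-0.57 ± 0.15 and -0.51 ± 0.15) and the ligase Rnf5 (-0.69 ± 0.24 and -0.98 ± 0.25). In the other direction, the ligase Rnf185 (0.59 ± 0.16 and 0.45 ± 0.16) and the VCP adaptor Faf2 (0.71 ± 0.26 and 0.73 ± 0.26) were called higher on days 14 and 28. Of 29 genes of translocation and N-glycosylation the counts were 1 higher and 2 lower, 2 higher and 2 lower and 1 higher and 3 lower, and Tram1, which helps chains into the translocon, fell on all 3 days (-0.88 ± 0.16, -0.98 ± 0.16 and -1.03 ± 0.16), while Sec62 fell on days 7 and 28 (-0.39 ± 0.10 and -0.29 ± 0.10) and Sec61a2, a form of the channel subunit, rose on all 3 days (0.56 ± 0.16, 0.51 ± 0.16 and 0.45 ± 0.16). None of 25 genes of ER export and retrieval was called at 15 mg/kg on any day. The median log2 fold changes of these 4 lists at 15 mg/kg on day 14 were -0.45, 0.02, -0.30 and -0.09.

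The PERK and ATF4 arm held genes called higher as well as lower. Of its 13 tested genes the counts at 15 mg/kg were 4 higher and 1 lower, 4 higher and 1 lower and 3 higher and 1 lower, with medians of 0.15, 0.62 and 0.01. Asns, asparagine synthetase and a textbook ATF4 target, was at 0.890 ± 0.382 CPM (SD, n = 5) with vehicle and 45.4 ± 16.4 CPM at 15 mg/kg on day 28, and its fold changes were 3.94 ± 0.42, 4.94 ± 0.45 and 5.61 ± 0.46 on days 7, 14 and 28 (adjusted p = 9.19e-10, 5.27e-12 and 2.35e-13, edgeR). Psat1, an enzyme of serine synthesis, rose (2.44 ± 0.32, 2.02 ± 0.32 and 2.65 ± 0.33), as did the pseudokinase Trib3 (2.83 ± 0.58, 2.67 ± 0.57 and 3.34 ± 0.59). Ppp1r15b, a regulatory subunit of the eIF2α phosphatase, fell (-1.73 ± 0.22, -1.68 ± 0.22 and -1.46 ± 0.22), and Ddit3, which encodes CHOP, rose on day 7 (1.68 ± 0.48). Among 10 other ER stress transducers the counts were 1 higher and 0 lower, 1 higher and 0 lower and 2 higher and 1 lower. Creb3l3, a liver-enriched ER-bound transcription factor, rose (0.93 ± 0.14, 1.03 ± 0.14 and 0.68 ± 0.13), and Mbtps2, the protease that makes a cut of ATF6 in the membrane, was called higher on day 28 (0.45 ± 0.14). Ube2g2, Rnf185, Faf2, Sec61a2, Trib3, Ppp1r15b and Ddit3 were named after their values were seen.

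Markers of liver cell types were measured in the same libraries. Of all genes tested, 7.2%, 10.2% and 8.31% were called lower at 15 mg/kg on days 7, 14 and 28, and 6.78% higher on day 7. At 5 mg/kg the shares called lower were 2.85%, 5.27% and 4.85%, and at 1 mg/kg on day 14 the share was 2.95%. A marker count near such a share is not a result about the cell type. All 9 hepatocyte markers found, mostly secreted plasma proteins such as albumin, were present in every library, and none was at 0. At 15 mg/kg 7, 6 and 5 of them were called lower on days 7, 14 and 28, and their summed level ran from 167235 to 275529 CPM with vehicle and from 80781 to 145845 CPM at 15 mg/kg on day 7, from 127362 to 200529 and 63978 to 136396 CPM on day 14, and from 130831 to 217519 and 102494 to 147119 CPM on day 28. The 11 Kupffer cell markers had no member at 0 in any group. Of them, 2, 9 and 4 were called lower, with summed levels from 425 to 844 and 224 to 509 CPM on day 7, 617 to 1100.4 and 173 to 469 CPM on day 14 and 355 to 681 and 212 to 371 CPM on day 28, vehicle first. At 5 mg/kg 5, 5 and 3 of the 9 hepatocyte markers were called lower, with summed levels from 95539 to 177342, 76654 to 115053 and 121668 to 164301 CPM, and at 1 mg/kg on day 14 the count was 0, with 143889 to 218947 CPM. Of 8 tested stellate cell and fibroblast markers 2, 2 and 1 were called lower, with Col1a2 at 0 in the vehicle groups of days 7 and 14, and summed levels were 360.4 to 551 and 142 to 329.6 CPM on day 7, 334 to 501 and 171 to 326 CPM on day 14, while the day 28 means were 261.3 and 196 CPM. Of 5 erythroid markers 4, 0 and 0 were called lower, at 183 to 2148 and 36.4 to 253.5 CPM on day 7. Plasma and B cells, which also hold a large ER, had 9 markers whose sum was at most 16.0 CPM in any library, with Cd79a at 0 in every group; of 5 tested, 0, 2 and 1 were called lower. Of 8 endothelial markers 0, 2 and 0 were called lower and of 3 cholangiocyte markers 1 was called higher on day 7, while of 2 pancreatic acinar markers none was called. The part of these markers in the results was not tested.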

How the data were processed

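The study measured polyA RNA of rat liver in 60 libraries. Per the labels' protocols, RNA was isolated with the RNeasy mini kit and libraries were made with the TruSeq Stranded mRNA kit. Per the submitters' processing notes, the authors used bcl2fastq 2.20.0.422, Trimmomatic 0.33, STAR 2.5.2b, featureCounts of Subread 1.6.0 and the build Rnor_6.0. Settings, annotation release and strand setting are not given in the sources used here. Whether reads of overlapping antisense genes were kept apart in the counts is therefore not known. The deposited values are raw counts per gene, without pooling. Genes without a symbol held 1.39% of reads. Any 2 libraries of the same group differed with a chi-square of at least 18.5 per degree of freedom, more than counting noise.

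Counts were filtered with filterByExpr (minimum count 10, minimum total 15), scaled by TMM and fitted as 12 group means over all 60 libraries by the robust quasi-likelihood fit of edgeR 4.0.16 in R 4.3.3 with limma 3.58.1 (48 residual degrees of freedom, biological coefficient of variation 0.388). Tests were two-sided, with Benjamini-Hochberg adjustment across all 12167 genes. The SE was taken as |log2 fold change| divided by the root of the F statistic. CPM uses TMM-scaled library sizes, and ± after a level is the SD of 5 libraries. Summed levels were described without a test. Alternatives were DESeq2 size factors, the Wald test of DESeq2 1.42.0, no filter, the library score (500 genes) as covariate, leaving out the 3 libraries of lowest score, a fit of 1 day, and leaving out each library. The genes, lists and tests were chosen with earlier results of these data known. Library values are printed for genes called at 15 mg/kg, or at 1 or 5 mg/kg, on at least 2 days, at the day of smallest p; Hspa5, Herpud1 and Atf6 were added after their values were seen. Of 208 genes in 14 further lists, 193 were matched by symbol, 2 through RefSeq and 13 not, and 177 were tested. Each pathway list names its 2 called genes of lowest p in the 15 mg/kg comparison of day 28.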

Additional observations from a re-analysis of the deposited data

Results flagged for a closer look

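Within groups of 5, a library that stood far from the other 4 was looked for in 38 groups of values, of which chance would mark about 1 in 20, and 4 were found. The summed level of the 33 genes at 5 mg/kg on day 28 was 4677 CPM in library 5, with the other 4 libraries between 5091 and 5256 CPM; its library score was 0.39. Sdf2l1 at 15 mg/kg on day 14 was 21.3 CPM in library 3, with the others between 2.76 and 6.15 CPM, and Creld2 was 28.8 CPM in the same library, with the others between 12.5 and 15.9 CPM. That library had a score of -1.81, among the 3 lowest of the 60. Derl2 at 15 mg/kg on day 28 was 85.9 CPM in library 2, with the others between 26.7 and 32.0 CPM, and the score of that library was -1.35, beside 0.62 to 1.00 in the other 4. Sdf2l1, Creld2 and Derl2 are among the 7 genes with a correlation below -0.8 with the score. Over all alternatives, the adjusted p of Sdf2l1 and Creld2 on day 14 ran from 2.99e-12 to 0.00583 and from 2.60e-06 to 0.0198. The cause of these values was not tested.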

How the results depend on the processing

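None of the 69 called results reversed its direction in any alternative. With the score as covariate 29 of the 288 fold changes against vehicle changed sign, none of them called without the score and 3 called with it, all lower: Sec61b at 5 mg/kg and Sel1l at 15 mg/kg on day 14, and Os9 at 1 mg/kg on day 28. In addition, the log2 ratios of the summed level moved in every alternative by less than the pooled SD between replicates. Leaving out 1 of 5 libraries shifts a mean by only part of that SD, so for those fits this was largely fixed in advance. With 1 library left out, the ratio at 1 mg/kg ran from -0.21 to -0.06 on day 7, beside -0.13 with all. On day 28 it ran from -0.22 to -0.10, beside -0.16. Of the 69 calls against vehicle, 66 held with DESeq2 size factors, 69 with the Wald test and 69 with the library score. Leaving out the 3 libraries of lowest score kept 64, dropping the filter 52 and fits of 1 day 45. Each call was also checked with each library of its 2 groups left out, and 556 of these 690 checks kept it. The score as covariate gave 2, 23 and 25 genes lower on day 7, 19, 22 and 22 on day 14 and 6, 14 and 18 on day 28, and 3 higher at 15 mg/kg on day 7, 1 and 2 at 5 and 15 mg/kg on day 14 and 1 at each of these doses on day 28; it called 2 genes between 15 and 5 mg/kg on day 7 and 2 in the change of the 1 mg/kg effect to day 14. Without the filter, more genes were tested, and 5 were lower at 1 mg/kg on day 14, 2 at 5 mg/kg and 4 at 15 mg/kg on day 28. Fits of 1 day gave 6 lower at 5 mg/kg on day 7, 3 at 1 mg/kg on day 14 and 2 at 1 mg/kg on day 28, and 1 higher at 5 and at 15 mg/kg on day 28, with fewer samples. Without the 3 libraries 2 genes were higher at 15 mg/kg on day 14 and 2 lower at 1 mg/kg on day 28. Shares over all genes were not computed for the fits without the filter, of 1 day, or without 1 or 3 libraries. The same holds for the dose and time comparisons with the score. Counts from these fits describe the setting and are not results about the genes. The Wald test gave 6 and 7 lower at 1 and 5 mg/kg on day 28 (all genes 2.45% and 5.9%) and 1 in the change of the 1 mg/kg effect to day 14.

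With each library left out in turn, the number lower ran from 7 to 12 at 5 mg/kg and 9 to 14 at 15 mg/kg on day 7, 4 to 13 at 1, 9 to 13 at 5 and 10 to 15 at 15 mg/kg on day 14, and 1 to 3, 1 to 8 and 4 to 8 at 1, 5 and 15 mg/kg on day 28; the number higher at 15 mg/kg on day 14 ran from 0 to 1, as did the change of the 1 mg/kg effect to day 14. The count of 4 at 1 mg/kg on day 14 came without vehicle replicate 3 or 4 or treated replicate 1 or 2. At 1 mg/kg on day 28 the 3 came without vehicle replicate 3. At 5 mg/kg on day 28 it was 1 without treated replicate 3 and 8 without replicate 4, and at 15 mg/kg 4 without vehicle replicate 2 or 5 or treated replicate 3 or 5. Apart from the constructions named, the cause was not tested. No paired analysis was possible because the labels give no replicate numbers. Depth limits what can be said of Derl3.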
